A study of Mus musculus with 8 samples.

Results

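The 9 genes described here are the 4 ErbB receptor genes (Egfr, Erbb2, Erbb3 and Erbb4), 4 genes for ligands of the EGF type (Hbegf, Areg, Ereg and Tgfa) and Errfi1, whose product inhibits the receptors. They were taken by symbol from a table of 52636 mouse genes, each symbol matching 1 gene identifier, and the rule that lists them uses no measured value. RNA was sequenced from mouse epiblast at embryonic day 5.5 (E5.5) in 8 libraries. All embryos had the genotype Sox2Cre;CRAFR26, in which Sox2-driven Cre, active in the epiblast, goes with a construct that induces ERK when 4-hydroxytamoxifen (4OHT) is given. The mouse line came from targeted embryonic stem cells injected into morulas, and the labels name 2 clones, 4 and 8. Each clone had 2 libraries of embryos given 250 nM 4OHT for 4 h in IVC2 medium and 2 libraries of vehicle (ethanol) embryos. The labels give the vehicle embryos 4 h of ethanol, whereas their time label and titles read 0 h. If they were not cultured, 4OHT and vehicle libraries also differ by 4 h in culture. Each library was a pool of 10 epiblasts whose extraembryonic layers had been dissected off, with 7 ng of RNA per library. Nothing in the labels says that the replicates came from separate litters, so p-values measure only the spread between these libraries.

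ErbB receptors are tyrosine kinases of the cell surface that act in pairs and feed the RAS and ERK cascade, whose last kinase the construct induces. EGFR and ErbB4 bind EGF-type ligands, ErbB3 binds neuregulins but has little kinase activity of its own, and ErbB2 has no known soluble ligand and serves as the preferred partner of the others. The ligands are made as membrane-bound precursors and released by proteases, and the ERRFI1 protein (MIG6) binds the kinase domain of active receptors and holds it inactive. Errfi1 is known as a gene that growth factor signalling through ERK induces, which makes it a feedback inhibitor of the receptors.

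Promoter sequences are shown for Errfi1 and Erbb2, which both rose with 4OHT in clone 8, and for Areg, which shares a motif with Errfi1 and was near the limit of detection. They are the 250 bases before the transcription start, read 5' to 3' on the gene's strand, from RefSeq promoters on GRCm38.p6. Of the 9 genes, 6 had an entry (Egfr, Erbb2, Erbb4, Areg, Tgfa and Errfi1), and Errfi1 had 2 starts. Capitals mark matches, on either strand, to the CRE motif TGACGTCA or the Sp1 motif GGGCGGG.
Errfi1, second start, chr4:150854820-150855069, plus strand: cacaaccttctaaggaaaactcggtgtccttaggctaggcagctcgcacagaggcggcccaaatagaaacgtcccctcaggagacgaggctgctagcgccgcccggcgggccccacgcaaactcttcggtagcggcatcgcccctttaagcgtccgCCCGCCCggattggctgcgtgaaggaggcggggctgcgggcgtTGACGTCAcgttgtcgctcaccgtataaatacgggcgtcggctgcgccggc
Areg, chr5:91139349-91139598, plus strand: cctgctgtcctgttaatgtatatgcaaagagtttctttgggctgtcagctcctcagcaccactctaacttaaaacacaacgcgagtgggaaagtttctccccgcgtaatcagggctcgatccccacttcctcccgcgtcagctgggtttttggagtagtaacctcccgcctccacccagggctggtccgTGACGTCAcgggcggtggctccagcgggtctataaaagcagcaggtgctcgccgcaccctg
Erbb2, chr11:98412234-98412483, plus strand: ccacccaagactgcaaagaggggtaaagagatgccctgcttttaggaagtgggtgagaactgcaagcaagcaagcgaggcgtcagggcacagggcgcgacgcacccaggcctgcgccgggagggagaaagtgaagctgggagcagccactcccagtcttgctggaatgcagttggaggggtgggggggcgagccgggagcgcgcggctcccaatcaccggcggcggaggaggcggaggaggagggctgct
The Errfi1 window lies inside the annotated gene, ahead of its second start. It holds TGACGTCA with the first base 51 bases before the start and the reverse complement of GGGCGGG 94 bases before it, and the Areg window holds TGACGTCA 61 bases before its start. TGACGTCA occurred in 508 of 32851 RefSeq mouse promoter windows of the same length (1.55%), and GGGCGGG in 23.4%. The Errfi1 window had 30 CG dinucleotides and 64.8% GC, against medians of 6 and 52.4% over all windows. The Erbb2 window had 16 CG dinucleotides and 66.0% GC and no match to any of the 7 motifs searched, which besides those above were AP-1 TGACTCA (4.46% of windows), Ets CCGGAAG (6.91%), Egr GCGTGGGCG (0.536%), the E-box CACGTG (6.02%) and the CArG box (1.47%). The first Errfi1 start and the Erbb4 window also had no match. The Tgfa window had GGGCGGG, and the Egfr window had GGGCGGG and CCGGAAG. These are matches of letters only.

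The libraries differed in ways that run alongside the results. Total counts were 33.3 to 38.0 M (M stands for mega) in vehicle and 56.4 to 72.5 M in 4OHT libraries. Mitochondrial transcripts took 0.205% to 0.619% of counts except in the 4OHT libraries of clone 8, at 1.35% and 1.19%. Transcripts of ribosomal protein genes took 9.68% and 7.98% of counts in the vehicle libraries of clone 8, with the higher share in replicate 1, and 5.01% to 6.92% in the other 6. Markers of extraembryonic ectoderm and trophoblast, the tissue next to the epiblast, were present in every library (15 of 15 genes), with the lowest summed levels in the vehicle libraries of clone 8, 993.5 and 1090 CPM (counts scaled to a common library total of 1 M), against 1380 to 1980 CPM in the other 6. Visceral endoderm markers, also 15 of 15 in every library, summed to 502.2 to 3061 CPM. All 10 epiblast markers were present in every library and summed to 5202 to 6548 CPM, so the labelled tissue was there. No gene of these lists was at 0 in all libraries.

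Per exonic length, Errfi1 was the most abundant of the 9 genes and the receptors ErbB3 and ErbB2 came next. Levels as RPKM, which is CPM divided by the exonic length in kilobases, averaged over the 8 libraries, were 26.2 for Errfi1, 5.34 for Erbb3, 3.62 for Erbb2, 1.55 for Hbegf, 0.397 for Tgfa, 0.354 for Egfr, 0.0735 for Areg and 0.00503 for Erbb4, and Ereg had no counts. In each of the 4 groups of clone and treatment the order Errfi1, Erbb3, Erbb2, Hbegf held without overlap between neighbours. Tgfa and Egfr overlapped in RPKM in 3 groups. In vehicle of clone 8 Tgfa was above Egfr, at 0.399 and 0.494 against 0.111 and 0.271 RPKM. Among the receptors Erbb3 gave 53.2% to 65.5% of the summed RPKM, Erbb2 30.5% to 43.0% and Egfr 2.41% to 5.06%. The receptor sum itself was lowest in the vehicle libraries of clone 8, at 4.60 and 6.71 RPKM, and highest in the 4OHT libraries of clone 8, at 11.5 and 14.4 RPKM. It was 9.98 and 9.51 RPKM in vehicle of clone 4 and 7.98 and 9.84 RPKM with 4OHT. The ratio of Erbb3 to Erbb2 RPKM stayed between 1.25 and 2.15. The ratio of Errfi1 to the receptor sum ran from 1.72 to 3.83, and its lowest values were in vehicle replicate 1 and 4OHT replicate 2 of clone 8.

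**Figure D1:**
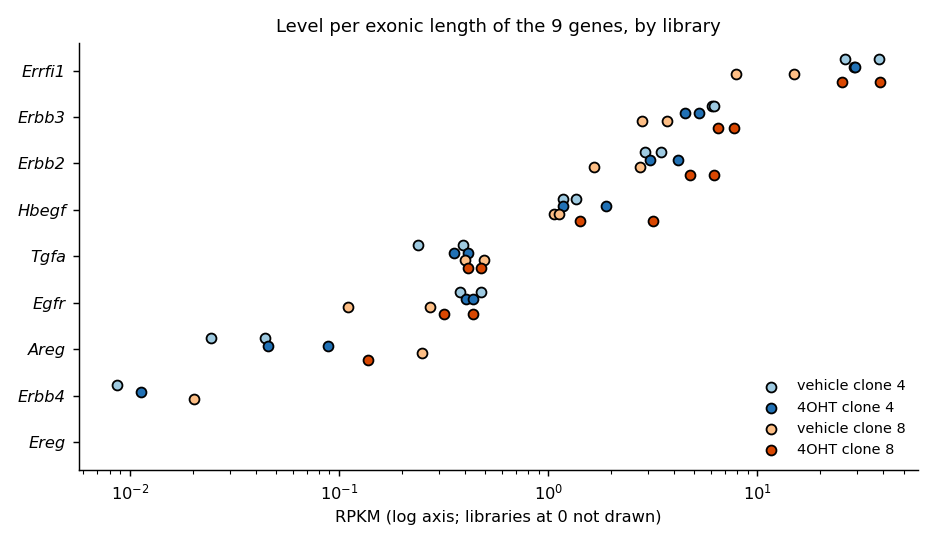
Level of each of the 9 genes in each library, in RPKM on a log axis, coloured by clone and treatment; libraries with no counts are not drawn, so Ereg has no point. Errfi1 lies between 7.90 and 38.7 RPKM in all libraries, and Areg and Erbb4 lie below 0.25 RPKM.

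With 4OHT, 3 of the 6 genes that could be tested were called higher in clone 8 (Errfi1, Erbb2 and Erbb3). In clone 4, 0 of 6 were called. Erbb4, Areg and Ereg did not pass the filter on low counts. Calls were made with edgeR's quasi-likelihood test where the p-value, adjusted by Benjamini-Hochberg over the 18321 genes tested, was below 0.05. In clone 8, 16.6% of all genes tested were called, 8.00% higher and 8.60% lower. In clone 4 only 7 genes, 0.0382% of those tested, were called, all of them higher, and 1814 had an unadjusted p below 0.05. The median log2 fold change of the 6 genes was 1.09 in clone 8, where that of all genes was 0.07, and 0.08 in clone 4, where that of all genes was -0.00. In these bulk libraries fewer cells of a type and less RNA per cell cannot be told apart. The calls in clone 8 rested on vehicle replicate 1 of that clone: without it, 0 of the 6 genes and 0 of the 18321 genes were called. They were also lost when the 4 libraries of clone 8 were fitted alone (0 genes called, edgeR adjusted p = 0.0677 for Erbb2, 0.0588 for Erbb3 and 0.0643 for Errfi1).

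Erbb3, the neuregulin receptor (chr10:128567523-128589652, minus strand, mm10), was the receptor with the highest counts. Its level was 36.3 and 37.5 CPM in vehicle and 27.1 and 31.5 CPM with 4OHT in clone 4, and 16.9 and 22.3 CPM in vehicle and 38.8 and 46.7 CPM with 4OHT in clone 8. The 4OHT libraries thus lay below vehicle in clone 4 and above it in clone 8, with no overlap in either clone. Ranges that did not overlap were common: of all genes tested, 23.8% lay lower and 23.7% higher in clone 4, and 28.3% lay lower and 31.7% higher in clone 8. In clone 8 Erbb3 rose 2.18-fold, a log2 fold change of 1.13 ± 0.19 (SE, edgeR adjusted p = 0.0106). In clone 4 its log2 fold change was -0.33 ± 0.19 (edgeR adjusted p = 0.627). The difference between these responses was 1.46 ± 0.27 in log2 (edgeR adjusted p = 0.0353), which made Erbb3 the only 1 of the 6 called for that difference, where 2.83% of all genes were called, 1.08% with a higher and 1.75% with a lower value in clone 8. Leaving out single libraries kept this difference between 1.25 and 1.64, but it was called in 3 of the 8 such fits. It was not called without vehicle replicate 1 or 2 of clone 4, 4OHT replicate 1 or 2 of clone 4, or vehicle replicate 1 of clone 8 (edgeR adjusted p = 0.112, 0.15, 0.123, 0.119 and 0.146).

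Erbb2, the partner receptor without a soluble ligand (chr11:98412470-98437716, plus strand), showed its highest levels in the 4OHT libraries of clone 8. It had 18.0 and 15.1 CPM in vehicle and 16.1 and 21.6 CPM with 4OHT in clone 4. In clone 8 it had 8.67 and 14.25 CPM in vehicle and 24.7 and 32.3 CPM with 4OHT. Both 4OHT libraries of clone 8 thus lay above the other 6, as they did for Erbb3. The share of all genes tested that did so was not counted. The rise in clone 8 was 2.49-fold, 1.31 ± 0.28 in log2 (SE, edgeR adjusted p = 0.0174). In clone 4 the log2 fold change was 0.18 ± 0.27 (edgeR adjusted p = 0.891). The difference between the clones was 1.13 ± 0.39 in log2 and was not called (edgeR adjusted p = 0.137). The annotated 3' end of Erbb2 overlaps Mien1, whose level went the other way in clone 8, with 36.5 and 28.5 CPM in vehicle and 18.7 and 14.8 CPM with 4OHT. The use of strand in counting is not given in the sources used here, so reads in the shared stretch cannot be assigned.

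Egfr, the receptor for EGF, TGFA and amphiregulin (chr11:16752203-16918158, plus strand), was low, and its change in clone 8 did not pass the test. It had 5.38 and 4.29 CPM in vehicle and 4.57 and 4.96 CPM with 4OHT in clone 4. In clone 8 it had 1.25 and 3.07 CPM in vehicle and 3.58 and 4.96 CPM with 4OHT. Both 4OHT libraries of clone 8 lay above its vehicle libraries, as did those of 31.7% of all genes tested. For Egfr the higher lay within the range of clone 4 and the lower below it. The log2 fold change was 0.98 ± 0.41 in clone 8 (edgeR adjusted p = 0.127) and -0.02 ± 0.39 in clone 4 (edgeR adjusted p = 0.995). Without vehicle replicate 1 of clone 8 the value in that clone was 0.45, and without vehicle replicate 2 it was 1.74. Erbb4, the other receptor with EGF-type and neuregulin ligands, was barely detected, with 4 and 0 counts in vehicle and 0 and 10 counts with 4OHT in clone 4, 9 and 0 counts in vehicle of clone 8, and 0 in both 4OHT libraries of clone 8. A count of 0 allows up to 3 counts in a library, which is 0.0481 and 0.0501 CPM in those last libraries, for counting error only.

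**Figure D2:**
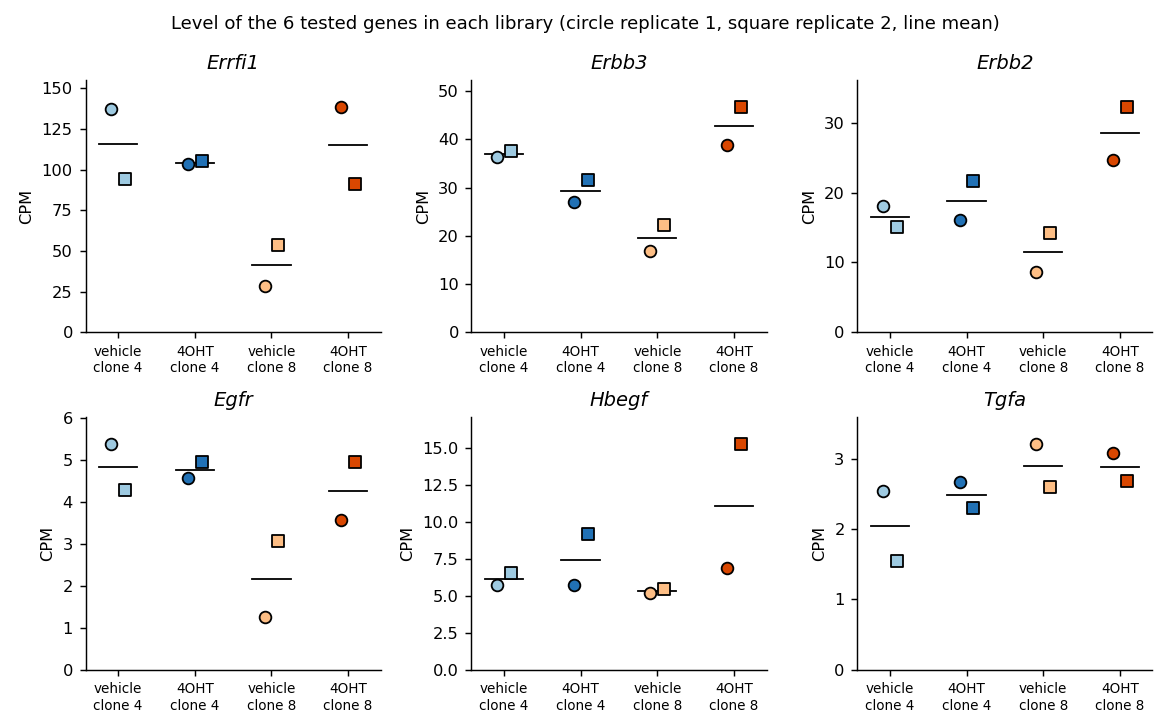
CPM of the 6 tested genes in the 8 libraries, with circles for replicate 1, squares for replicate 2 and lines for group means, each panel starting at 0. Errfi1, Erbb3 and Erbb2 are lowest in the vehicle libraries of clone 8, and only for Erbb2 and Erbb3 do both 4OHT libraries of clone 8 exceed every other library. The share of all genes tested that did so was not counted.

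Among the ligands, Hbegf was the most abundant and none passed the test. Hbegf, which encodes the heparin-binding ligand of EGFR and ErbB4, had 5.70 and 6.55 CPM in vehicle and 5.70 and 9.15 CPM with 4OHT in clone 4. In clone 8 it had 5.16 and 5.45 CPM in vehicle and 6.87 and 15.25 CPM with 4OHT. The 4OHT libraries of clone 8 lay above its vehicle libraries, as did those of 31.7% of all genes tested. For Hbegf they differed from each other by more than the replicates of any other group. The log2 fold change was 1.06 ± 0.38 in clone 8 (SE, edgeR adjusted p = 0.0847) and 0.28 ± 0.38 in clone 4 (edgeR adjusted p = 0.874). The value in clone 8 was 0.37 without 4OHT replicate 2, and 1.52 without 4OHT replicate 1, where it was called (edgeR adjusted p = 0.0146). It was also called with DESeq2 (1.04, DESeq2 adjusted p = 0.0266) and without the filter on low counts (1.09, edgeR adjusted p = 0.00543).

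Tgfa, the ligand TGF-alpha that binds EGFR (chr6:86195223-86275719, plus strand), was nearly level across the libraries. It had 2.54 and 1.55 CPM in vehicle and 2.67 and 2.29 CPM with 4OHT in clone 4, and 3.21 and 2.59 CPM in vehicle and 3.08 and 2.69 CPM with 4OHT in clone 8. Treatment groups overlapped in both clones, with log2 fold changes of 0.28 ± 0.34 in clone 4 and -0.01 ± 0.34 in clone 8 (edgeR adjusted p = 0.866 and 0.99). The sign of the value in clone 8 turned with the scaling, at 0.12 with library totals. Areg, the EGFR ligand amphiregulin, had 2 and 1 counts in vehicle and 6 and 4 counts with 4OHT in clone 4, and 0 and 10 counts in vehicle and 0 and 10 counts with 4OHT in clone 8. Its counts were too few for a comparison. Ereg, the ligand epiregulin, had 0 counts in all 8 libraries, which allows up to 0.0417 to 0.0904 CPM in a library and 0.00769 CPM over all 8.

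Errfi1, the inhibitor (chr4:150853919-150868892, plus strand), had the largest log2 fold change of the 6 genes in clone 8 and none that passed in clone 4. Its level was 136.9 and 94.3 CPM in vehicle and 103.6 and 105 CPM with 4OHT in clone 4. In clone 8 it was 28.3 and 53.8 CPM in vehicle and 138.5 and 91.4 CPM with 4OHT. The vehicle libraries of clone 8 were the lowest of the 8, and the 4OHT libraries of clone 8 spanned the whole range of clone 4. The share of all genes tested that were lowest in those vehicle libraries was not counted. In clone 8 Errfi1 rose 2.80-fold, 1.49 ± 0.31 in log2 (SE, edgeR adjusted p = 0.0167), and in clone 4 the value was -0.15 ± 0.30 (edgeR adjusted p = 0.928). The difference between the clones was 1.63 ± 0.43 and was not called (edgeR adjusted p = 0.0742), although it was the largest of the 6. Without vehicle replicate 1 of clone 8 the change in that clone was 1.07 for Errfi1, 0.98 for Erbb2 and 0.92 for Erbb3 (edgeR adjusted p = 0.123, 0.143 and 0.0956), and each of the 3 was called in the other 7 fits that left out a single library. Antisense neighbours were near 0, with at most 6 counts for 1700045H11Rik at Errfi1 and at most 1 for Egfros at Egfr.

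**Figure D3:**
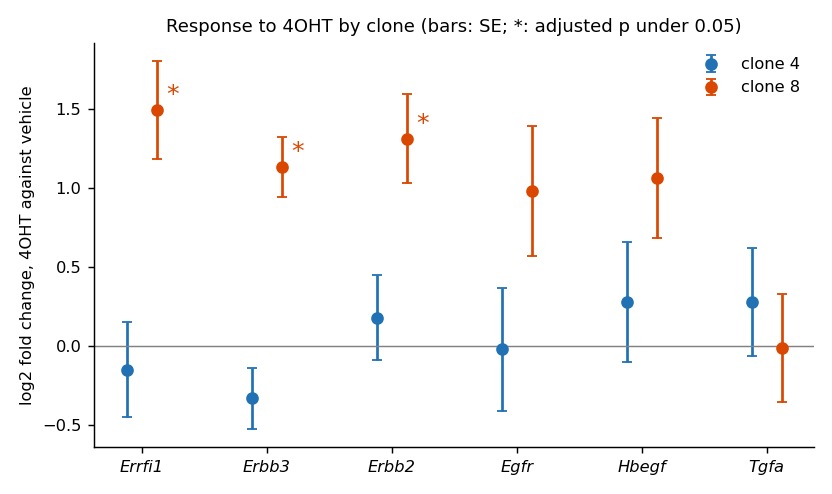
Log2 fold change of 4OHT against vehicle in clone 4 (blue) and clone 8 (orange) for the 6 tested genes, with bars for the standard error and asterisks for an adjusted p under 0.05. In clone 8, 5 genes lie between 0.98 and 1.49 and Tgfa lies at -0.01, whereas clone 4 spans -0.33 to 0.28.

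The vehicle libraries of the 2 clones differed from each other in some of the 6 genes. Those of clone 8 that enter this comparison also enter the response of clone 8. In vehicle, Errfi1 and Erbb3 were lower in clone 8 than in clone 4, by log2 fold changes of -1.49 ± 0.31 and -0.91 ± 0.19 (SE, edgeR adjusted p = 0.028 for each), where 8.37% of all genes tested were called, 4.31% lower and 4.06% higher. Egfr (-1.16 ± 0.41), Erbb2 (-0.53 ± 0.28), Hbegf (-0.21 ± 0.38) and Tgfa (0.50 ± 0.35) were not called (edgeR adjusted p = 0.111, 0.266, 0.798 and 0.423). CPM ranges did not overlap for any of the 6, with 5 lower and Tgfa higher, where 29.2% and 29.7% of all genes tested lay lower and higher. The calls of Errfi1 and Erbb3 were lost without vehicle replicate 1 or 2 of clone 4 (edgeR adjusted p = 0.156 and 0.107 for Errfi1, 0.142 and 0.167 for Erbb3) or vehicle replicate 1 of clone 8 (0.207 and 0.229). They were also lost without 4OHT replicate 1 (0.057 and 0.0562) or 2 (0.0564 and 0.0558) of clone 4, and kept in the other 3 fits.

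Over both clones together, with clone as a term, all 6 log2 fold changes were above 0 and none passed the test. They were 0.75 ± 0.27 for Erbb2, 0.67 ± 0.35 for Errfi1, 0.67 ± 0.30 for Hbegf, 0.47 ± 0.33 for Egfr, 0.39 ± 0.28 for Erbb3 and 0.13 ± 0.25 for Tgfa (SE, edgeR adjusted p = 0.222, 0.363, 0.294, 0.488, 0.492 and 0.822). Of all genes tested 1 was called (0.00546%), Esr1. Before adjustment, 3088 genes of all and 2 of the 6 (Erbb2 and Hbegf) had a p below 0.05.

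The marker lists changed in different directions. Extraembryonic ectoderm markers rose with 4OHT in clone 8, as Errfi1, Erbb2 and Erbb3 did, whereas visceral endoderm and epiblast markers had medians below 0 there. In clone 8, 10 of 15 extraembryonic ectoderm and trophoblast markers rose with 4OHT, where 8.00% of all genes tested were called higher. The list median was 1.65 in log2. Among those that rose were Elf5 (1.89 ± 0.28), Bmp8b (2.05 ± 0.19) and Esrrb (2.04 ± 0.14), with edgeR adjusted p = 0.0089, 0.0067 and 0.00215. In vehicle, 10 of 15 were lower in clone 8 than in clone 4, with a median of -1.31, where 4.31% of all genes tested were called lower. In clone 4, 0 of 15 were called with 4OHT, where 0.0382% of all genes tested were. The median there was 0.19, within a range of -1.31 to 0.61. Before adjustment, 7 of 15 had a p below 0.05 in clone 4, against 1814 of all 18321 genes. Summed levels in library order were 1971 and 1380 CPM in vehicle and 1848 and 1980 CPM with 4OHT in clone 4, and 993.5 and 1090 CPM in vehicle and 1603 and 1677 CPM with 4OHT in clone 8, so the vehicle libraries of clone 8 were lowest here as they were for Errfi1 and Erbb3. Visceral endoderm markers ran otherwise: 6 of 15 fell in clone 8 (median -1.19), where 8.60% of all genes tested were called lower. In clone 4 their median was 1.85 with 0 called, and 13 of 15 had an unadjusted p below 0.05. Their summed levels were 940 and 584.8 CPM in vehicle and 2701 and 3061 CPM with 4OHT in clone 4, and 2007 and 2022 CPM in vehicle and 502.2 and 1353 CPM with 4OHT in clone 8. Of the 10 epiblast markers, 4 fell in clone 8 (Pou5f1, Sox2, Utf1 and Pou3f1), by 0.44 to 0.79 in log2. The list median was -0.41, and 8.60% of all genes tested were called lower there. In clone 4, 0 of 10 were called, but 9 of 10 epiblast values were below 0, with a median of -0.17. Before adjustment, 4 of these 10 had a p below 0.05 in clone 4. Over both clones together all 10 values were below 0 and 0 were called. Erbb3 was called for the difference between the clones' responses. In that comparison 6 of 15 extraembryonic ectoderm markers were called higher (median 1.25) and 9 of 15 visceral endoderm markers lower (median -2.99). Of all genes tested, 1.08% were called higher there and 1.75% lower. The part of these cell types in the changes of Errfi1, Erbb2 and Erbb3 was not tested.

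**Figure D4:**
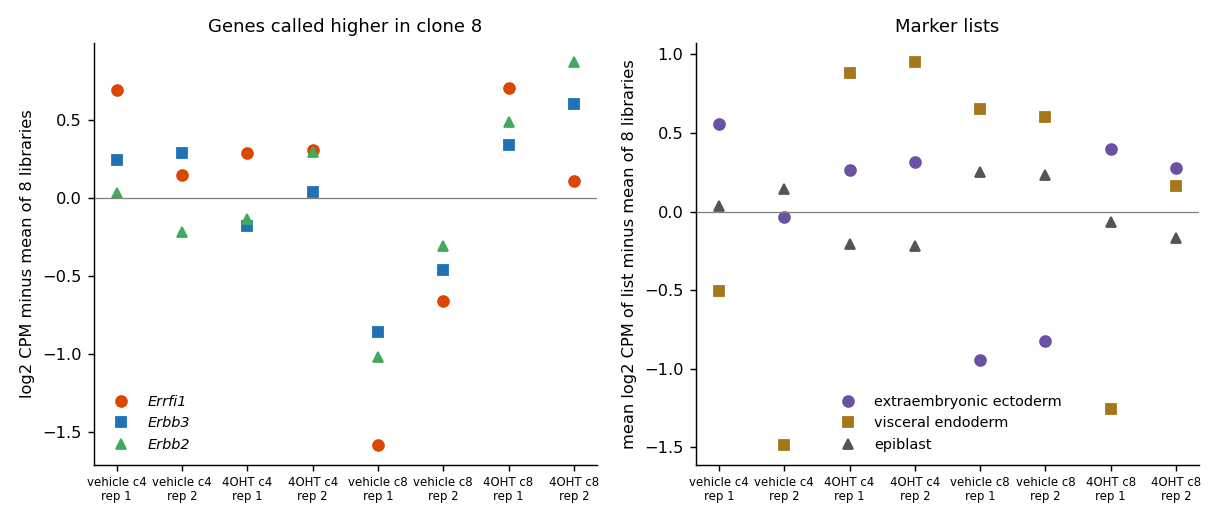
Left, log2 CPM of Errfi1, Erbb3 and Erbb2 in each library after subtracting the gene's mean over the 8 libraries; right, the mean log2 CPM of 3 marker lists treated the same way. The 3 genes and the extraembryonic ectoderm list are lowest in the vehicle libraries of clone 8, and the visceral endoderm list is lowest in vehicle replicate 2 of clone 4 and 4OHT replicate 1 of clone 8.

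Genes downstream of ERK were called in clone 8 and not in clone 4, and the difference was itself called for Fos and Fosl1 (3.26 ± 0.71 and 2.66 ± 0.41 in log2, edgeR adjusted p = 0.0476 and 0.0262). In a list of 15 genes known to follow ERK activity, 7 rose and 1 fell in clone 8. There 8.00% of all genes tested were called higher and 8.60% lower. In clone 4, 0 of 15 were called, where only 0.0382% of all genes tested were. Even so, 11 of 15 had a log2 fold change above 0 in clone 4, against 49.3% of all genes tested. Before adjustment, 4 of 15 had a p below 0.05 there, against 1814 of all 18321 genes. For the difference of the responses 2 of 15 were called, against 2.83% of all genes. In vehicle, 3 were called lower and 1 higher in clone 8 than in clone 4, against 4.31% and 4.06% of all genes. Fosl1 had 32.8 and 22.6 CPM in vehicle and 17.9 and 18.8 CPM with 4OHT in clone 4, and 3.51 and 6.03 CPM in vehicle and 22.9 and 17.1 CPM with 4OHT in clone 8. Its vehicle libraries in clone 8 thus lay below the other 6, and its 4OHT libraries there did not exceed the higher vehicle library of clone 4. The share of all genes tested that were lowest in those vehicle libraries was not counted. Egr1, an immediate early transcription factor, had 8.05 and 18.2 CPM in vehicle and 55.4 and 75.9 CPM with 4OHT in clone 4, and 5.77 and 6.12 CPM in vehicle and 74.7 and 379.1 CPM with 4OHT in clone 8. Its log2 fold change was 5.25 ± 0.73 in clone 8 (SE, edgeR adjusted p = 0.00834) and 2.32 ± 0.64 in clone 4 (edgeR adjusted p = 0.234). In clone 4 both 4OHT libraries lay above vehicle, as did those of 23.7% of all genes tested. Egr1 was called in clone 4 in 2 of the 8 fits that left out a single library, those without 4OHT replicate 1 or 2 of clone 8 (lowest edgeR adjusted p = 0.00919), and also with the 4 libraries of clone 4 fitted alone or without the filter on low counts. Fos, Fosl1, Ier2, Myc, Spry4 and Dusp6 also rose in clone 8, by 0.74 to 2.61, and Spred1, an inhibitor of the pathway, fell by 0.58 (edgeR adjusted p = 0.046). Of the 8 fits that left out a single library, Spred1 was called in 2, Dusp6 in 6 and the other 6 genes that rose in 7. Reads assigned to Esr1, the oestrogen receptor gene, rose by 3.79 in log2 in clone 8, which was called. In clone 4 the value was 4.21 and was not called. Leaving out single libraries gave 3.11 to 4.97 in clone 8 and 3.68 to 5.01 in clone 4. Over both clones together Esr1 rose by 3.99 ± 0.42 (edgeR adjusted p = 0.047), with 0.187 to 0.723 CPM in vehicle and 5.92 to 6.76 CPM with 4OHT. Its call was lost in at least 7 of the 8 fits that left out a single library, where 0 genes were called.

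Of the other ligands of the family, 3 of 7 could be tested and none was called in either clone. Nrg1, a neuregulin and so a ligand of ErbB3 and ErbB4, was the most abundant, with 11.2 and 6.99 CPM in vehicle and 14.3 and 13.4 CPM with 4OHT in clone 4, and 7.11 and 10.6 CPM in vehicle and 12.9 and 8.09 CPM with 4OHT in clone 8. Its log2 fold change was 0.60 ± 0.32 in clone 4 and 0.25 in clone 8. Egf, the founding ligand of EGFR, had a log2 fold change of 1.08 in clone 8 and -1.33 in clone 4, on levels of 0.459 to 2.72 CPM. The difference between the clones was 2.41 for Egf and was not called. For that difference 1 of the 3 tested ligands had an unadjusted p below 0.05. Leaving out single libraries gave Egf values of -0.10 to 1.72 in clone 8 and 1.24 to 3.05 for the difference. Nrg4, a ligand of ErbB4, had log2 fold changes of 0.26 in clone 8 and 0.20 in clone 4. Btc, Epgn, Nrg2 and Nrg3 did not pass the filter on low counts.

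Of the genes for ligand shedding and trafficking, 3 of 7 tested were called higher in clone 8 and none was called lower. Of all genes tested, 8.00% were called higher there and 8.60% lower. The list median was 0.42 in log2. Rhbdf1, which encodes the iRhom1 cofactor of the shedding protease, had 8.03 and 8.95 CPM in vehicle and 16.2 and 26.6 CPM with 4OHT in clone 8, and 7.97 and 8.93 CPM in vehicle and 12.1 and 12.6 CPM with 4OHT in clone 4. Its log2 fold change was 1.33 ± 0.25 in clone 8 (edgeR adjusted p = 0.013) and 0.55 ± 0.25 in clone 4 (edgeR adjusted p = 0.527). Its 4OHT libraries lay above vehicle in each clone, as did those of 31.7% of all genes tested in clone 8 and 23.7% in clone 4. Adam9, a metalloprotease, rose by 0.94 ± 0.18 (edgeR adjusted p = 0.0134). Adam17, the main protease that releases EGF-type ligands, rose by 0.68 ± 0.15 in clone 8 (edgeR adjusted p = 0.0192) and was lower in clone 8 than in clone 4 in vehicle, by -0.79 ± 0.15 (edgeR adjusted p = 0.0238).

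Among 16 adaptors and relay genes, 2 rose and 1 fell in clone 8, a share near the 16.6% of all genes tested that were called there, and the list median was 0.19. Gab1, a docking protein that links receptors to PI3 kinase and SHP2, had 24.6 and 47.7 CPM in vehicle and 105 and 103 CPM with 4OHT in clone 8, and 117.9 and 77.6 CPM in vehicle and 130.7 and 136.9 CPM with 4OHT in clone 4. It rose by 1.52 ± 0.29 in clone 8 (edgeR adjusted p = 0.0129) and was lower in clone 8 than in clone 4 in vehicle, by -1.43 ± 0.29 (edgeR adjusted p = 0.0259). Its 4OHT libraries in clone 8 lay within the range of clone 4. Shc1, an adaptor that recruits GRB2, rose by 0.51 ± 0.13, and its relative Shc2 fell, with -1.09 ± 0.33 (edgeR adjusted p = 0.0289 and 0.0493).

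Among 17 genes for degradation and inhibition of the receptors, 5 rose and 1 fell in clone 8, where 16.6% of all genes tested were called. The list median was 0.47. Those that rose were Cblb (0.83 ± 0.18), a ubiquitin ligase that targets active receptors, Socs4 (0.62 ± 0.18) and Socs5 (0.95 ± 0.26), SOCS proteins that promote loss of EGFR, Hgs (0.63 ± 0.15), which sorts ubiquitinated receptors at the endosome, and Usp8 (0.55 ± 0.15), a deubiquitinase that acts there. Lrig3, of a family of membrane proteins that bind ErbB receptors, had 22.3 and 21.4 CPM in vehicle and 9.87 and 8.18 CPM with 4OHT in clone 8, and 8.53 and 6.58 CPM in vehicle and 8.82 and 9.45 CPM with 4OHT in clone 4. It fell in clone 8 (-1.27 ± 0.21, edgeR adjusted p = 0.0103), and the difference between the clones was called (-1.55 ± 0.30, edgeR adjusted p = 0.0386). Its vehicle libraries in clone 8 stood above the other 6, the reverse of Errfi1. The share of all genes tested that did so was not counted. In vehicle Lrig3 was higher in clone 8 (1.53 ± 0.22, edgeR adjusted p = 0.0152), and Hgs, Stam2 and Usp8 were lower (-0.61 to -0.76). In that comparison 8.37% of all genes tested were called. In clone 4 none of the genes in these 4 lists was called, and all calls in clone 8 were lost without its vehicle replicate 1. Of the 8 fits that left out a single library, Socs4 was called in 0, Shc2 and Socs5 in 1, Usp8 in 2, Shc1 in 3, Hgs in 4 and Cblb in 6, and Adam17, Adam9, Rhbdf1, Gab1 and Lrig3 in 7. The calls between the clones in vehicle were all lost without vehicle replicate 1 of clone 4 or of clone 8, where 0 genes were called.

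**Figure D5:**
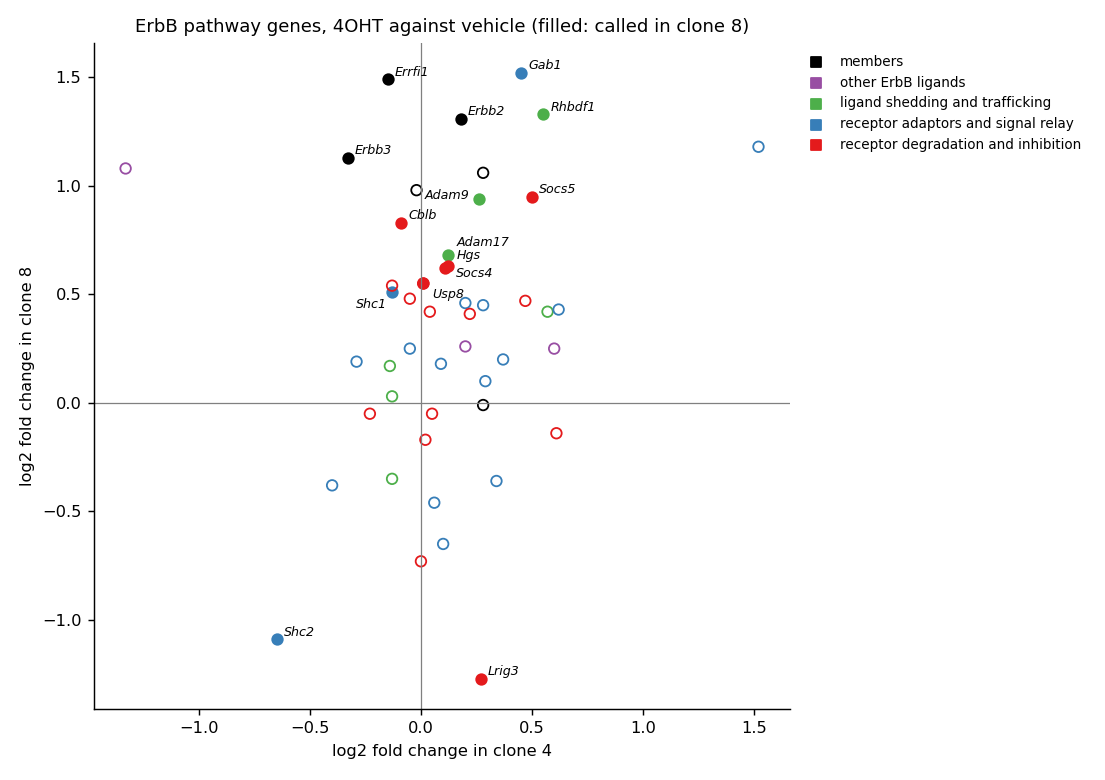
Log2 fold change of 4OHT against vehicle in clone 4 (horizontal) and clone 8 (vertical) for the 6 tested members and the tested genes of the 4 pathway lists, filled and named where called in clone 8. Of the named genes, Shc2 and Lrig3 lie below 0 in clone 8 and the others lie between 0.51 and 1.52.

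The genes with the most similar profile over the 8 libraries were found for each tested gene as the smallest root mean square distance between mean-centred log2 CPM values, among 9160 genes above the median level. They were Tut7 (0.100) and Ppm1j (0.107) for Erbb3, Slc4a11 (0.169) and Itgav (0.174) for Erbb2, and Arap1 (0.122) and Rinl (0.169) for Egfr. For Errfi1 they were Eng (0.152) and Adam19 (0.211), for Hbegf Zfp276 (0.157) and Dpy19l4 (0.173), and for Tgfa Plekha8 (0.0686) and Ppp4r3a (0.0847). Eng had 18.8 and 16.04 CPM in vehicle and 13.1 and 14.5 CPM with 4OHT in clone 4, and 3.40 and 7.35 CPM in vehicle and 21.7 and 11.8 CPM with 4OHT in clone 8, which follows the spread of Errfi1 within the groups of clone 8 as well. The spread of Errfi1 around its own mean was 0.718 in the same log2 unit, that of Erbb2 0.534, that of Erbb3 0.449 and that of Tgfa 0.297. These distances are descriptions over 8 libraries that share clone, treatment and depth.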

How the data were processed

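Raw counts by Ensembl identifier, not normalized, were deposited by the authors in 1 table for the 8 libraries. The submitters' processing notes name bcl2fastq 2.19.1, STAR 2.5.3a and mm10; the counting program, annotation release and use of strand are not given in the sources used here. Of 52636 identifiers 233 had no symbol and held at most 0.0325% of counts. In R 4.3.3, edgeR 4.0.16 tested the counts with its quasi-likelihood test after filterByExpr over the 4 groups of clone and treatment (minimum count 10, 18321 genes kept) and TMM scaling, with Benjamini-Hochberg adjustment over all genes tested. The within-clone responses, their difference and the vehicle comparison came from a fit of 4 groups, and both clones together from a fit of clone and treatment. CPM and RPKM use TMM-scaled totals, and RPKM also the exonic length of GENCODE vM21; a prior count of 2 was added for log2 CPM. The members, lists and tests were chosen with earlier results of these data known. All 9 members were named, as were list genes called in any comparison or, where fewer than 3 of a list were called, those with the lowest p in clone 8 up to 3, and the 2 most similar genes per tested member; 1 gene of that rule is not reported here. Alternatives were DESeq2 1.42.0, RLE and library-total scaling, no filter, thinned counts, a replicate block, other sets of samples and leaving out each library. Promoters came from RefSeq. Tested on simulated data for 18321 genes with 200 changed, the test in clone 8 recovered 30 of 100 genes at a log2 change of 1 and 57 of 100 at 2, and in clone 4 it recovered 33 and 59. It also called 7 unchanged genes in clone 8 and 10 in clone 4. Intervals and limits for 0 counts cover counting error only, with 33.3 to 72.5 M counts per library (M for mega).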

Additional observations from a re-analysis of the deposited data

Results flagged for a closer look

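Among the members and the pathway and ERK lists, 4 genes had a response to 4OHT that differed between the clones by edgeR's quasi-likelihood test of the difference itself (clone 8 minus clone 4, log2, Benjamini-Hochberg adjusted). Erbb3 differed by 1.46 (edgeR adjusted p = 0.0353), with -0.33 in clone 4 and 1.13 in clone 8. Lrig3 differed by -1.55 (edgeR adjusted p = 0.0386), with 0.27 and -1.27. Fos differed by 3.26 (edgeR adjusted p = 0.0476), with -0.66 and 2.61, and Fosl1 by 2.66 (edgeR adjusted p = 0.0262), with -0.59 and 2.07. Each value keeps its sign in all 8 fits that left out a single library, and each was called in 2 or 3 of them. For the same difference 519 of all genes tested were called, among them 6 of 15 extraembryonic ectoderm markers higher, 9 of 15 visceral endoderm markers lower and 2 of 6 parietal endoderm markers lower. Groups of 2 libraries are too small for a check of single outlying libraries.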

How the results depend on the processing

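In fits that left out a single library, the library then alone in its group is assumed to vary like the other groups. Genes called in clone 8 ranged from 0 to 3218 (3041 with all libraries) and members from 0 to 4. In clone 4 genes ranged from 0 to 259 (7) and members stayed at 0. For the difference between clones genes ranged from 0 to 1205 (519) and members from 0 to 2, for both clones genes from 0 to 1 and members stayed at 0, and for the vehicle comparison genes from 0 to 2491 (1534) and members from 0 to 3.
Fitting a clone's 4 libraries alone gave 220 genes in clone 4, and 0 genes and 0 members in clone 8, where Erbb2, Erbb3 and Errfi1 had edgeR adjusted p = 0.0677, 0.0588 and 0.0643. DESeq2 called 468 genes in clone 4, 1864 for the difference, 1053 over both clones and 3064 in the vehicle comparison, and 3 members for the difference (Erbb2, Erbb3 and Errfi1). Without the filter these were 728, 2114, 1337 and 2901 genes, with 3 members for the difference and 2 over both clones (Erbb2 and Errfi1). Thinning counts gave 55 genes in clone 4, and the mean of the within-clone contrasts gave 1063 over both clones. Library totals shifted the median of all genes in clone 8 to 0.191 and split the calls into 2102 higher and 1074 lower (1465 and 1576 with TMM), and for the difference into 214 and 197 (198 and 321).
Replicate numbers did not pair the libraries (correlations of deviations between groups -0.03 to 0.095); with a replicate block 0 genes were called in clone 4 and the member counts were 0, 3, 1, 0 and 2 in clone 4, clone 8, the difference, both clones and vehicle, as without it. Direction turned for genes near 0 that were not called: Egfr in clone 4 (0.06, thinned), Usp8 in clone 4 (-0.01, thinned) and Tgfa in clone 8 (0.12 with library totals, 0.02 without the filter).
Leaving out single libraries also turned the sign of small changes. In clone 4 the ranges were -0.17 to 0.16 for Egfr, -0.05 to 0.38 for Erbb2, -0.10 to 0.58 for Hbegf, -0.03 to 0.68 for Tgfa, -0.39 to 0.15 for Errfi1, -0.16 to 0.69 for Nrg4, -0.19 to 0.01 for Cblb, -0.03 to 0.24 for Socs4, -0.04 to 0.07 for Usp8 and -0.07 to 0.23 for Spry4. In clone 8 they were -0.19 to 0.13 for Tgfa, -0.10 to 1.72 for Egf, -0.13 to 0.55 for Nrg1 and -0.19 to 0.81 for Nrg4. For the difference they were -0.46 to 0.61 for Nrg4, -0.02 to 0.38 for Stam2, -1.24 to 0.76 for Esr1 and -0.72 to 0.00 for Tgfa, and over both clones -0.03 to 0.24 for Tgfa.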
